A study of Mus musculus with 16 samples.

Results

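Fibroblasts are recognised by proteins on their surface and by the cadherins that join them, and 10 genes for such proteins are described here in mouse embryonic fibroblasts (MEFs) on their way to induced pluripotent stem cells. The genes were set by name, with no threshold on their values but with earlier results of these data known: *Thy1*, *Ly6a*, *Cd44*, *Icam1*, *Pdgfra*, *Pdgfrb*, *Eng*, *Cdh2*, *Cdh11* and *Fap*. They are 10 of the 18990 genes in the deposited table, and all 10 passed the filter on low values, which kept 14028 genes. The cells were primary wild-type MEFs of strain BL6, reprogrammed at passage 2. Every culture, controls included, carried the tet-STEMCCA lentivirus for OSKM (*Oct4*, *Sox2*, *Klf4* and *c-Myc*) together with an rtTA lentivirus, and was grown in doxycycline, chiron, an Alk5 inhibitor of TGFb signaling, ascorbic acid and LIF. Before induction the cells received pooled siRNAs: non-targeting (nt) siRNA as the control, or siWdr5, siBrca1 or siBard1. Bulk RNA sequencing was done on day 3 and day 6 of induction with 2 biological replicates in each of the 8 groups. The p-values rest on the spread between replicates, pooled over all groups in a model and moderated across genes. Because the cultures were sequenced in bulk, fewer cells that express a gene and less of its RNA per cell cannot be told apart in any value below.

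The 10 genes cover several ways in which a fibroblast meets its surroundings. THY1 and LY6A (Sca-1) are small proteins held in the membrane by a GPI anchor. CD44 is a receptor for hyaluronan, and ICAM1 is a ligand of leukocyte integrins. PDGFRA and PDGFRB are receptor tyrosine kinases for platelet-derived growth factors, and endoglin (*Eng*) is a coreceptor for ligands of the TGF-beta family. N-cadherin (*Cdh2*) and cadherin-11 (*Cdh11*) hold mesenchymal cells together, and FAP is a membrane-bound serine protease of stromal cells. In reprogramming, fibroblasts pass through a mesenchymal-to-epithelial transition, the loss of THY1 marks cells that leave the fibroblast state, and CD44 and ICAM1 are used together as surface markers of its stages.

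*Icam1* and *Pdgfra* were higher and *Cd44* lower at day 6 than at day 3 in each of the 4 siRNA groups, and the 250 bases before their start sites are shown for this reason. The sequences are those of RefSeq on GRCm38.p6, read 5′ to 3′ on the strand of the gene. They lie at chr9:21015690-21015939 on the plus strand for *Icam1*, at chr5:75152001-75152250 on the plus strand for *Pdgfra* and at chr2:102901666-102901915 on the minus strand for *Cd44*. Capitals mark matches to the motifs searched on both strands.
Icam1: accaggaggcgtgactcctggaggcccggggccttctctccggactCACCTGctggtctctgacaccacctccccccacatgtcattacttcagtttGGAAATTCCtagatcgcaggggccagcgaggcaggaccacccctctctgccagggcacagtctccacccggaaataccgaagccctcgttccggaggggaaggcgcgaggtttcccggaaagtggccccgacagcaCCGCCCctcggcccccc
Pdgfra: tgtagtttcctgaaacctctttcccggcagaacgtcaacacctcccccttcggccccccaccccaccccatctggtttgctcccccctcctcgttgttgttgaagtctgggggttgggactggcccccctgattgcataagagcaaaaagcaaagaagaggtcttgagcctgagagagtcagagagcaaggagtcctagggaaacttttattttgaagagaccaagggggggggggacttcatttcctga
Cd44: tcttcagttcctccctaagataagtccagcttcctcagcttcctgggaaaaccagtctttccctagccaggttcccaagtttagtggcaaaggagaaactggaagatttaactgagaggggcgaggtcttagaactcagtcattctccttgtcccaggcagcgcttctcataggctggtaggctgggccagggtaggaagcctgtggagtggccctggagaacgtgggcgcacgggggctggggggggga
The letters searched were TATAAA for a TATA box, held by windows of this length in 12.4% of 32851 mouse promoters, GGGCGG for a GC box (32.7%), TGANTCA for an AP-1 site (6.75%), CACCTG for an E-box of SNAI and ZEB factors (17.2%), GGAATG for a TEAD core (12.6%) and GGAAATTCC for a site of NF-kB type (0.286%). No match overlaps another. The *Icam1* window held 1 GC box, read on its other strand as CCGCCC, 1 CACCTG and 1 GGAAATTCC. None of these motifs was found in the windows of *Pdgfra*, *Cd44* and *Eng*. Matches are a description of the letters. The RefSeq promoter table held 4 of the 10 genes, *Cd44*, *Icam1*, *Pdgfra* and *Eng*.

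The libraries held 11169738 to 26832534 reads (median 14618683.5), so that 3 reads stood at 0.115 to 0.260 CPM, the usual read count scaled to library size. Expression is given as CPM, taken as 2 to the power of the deposited log2 values, and differences are log2 differences of these values. Each siRNA lowered its own transcript at day 3, with log2 differences to the nt control of -1.31 for *Wdr5* in siWdr5, -1.57 for *Brca1* in siBrca1 and -0.62 for *Bard1* in siBard1 (limma, adjusted p = 3.0e-06, 7.9e-05 and 0.042). The targets were also lower in other knockdowns of day 3. *Bard1* was lower in siBrca1 (-1.38) and siWdr5 (-1.03), both further from nt control than the -0.62 of siBard1, *Wdr5* was lower in siBrca1 (-0.87) and siBard1 (-0.48), and *Brca1* was lower in siWdr5 (-0.86; limma, adjusted p = 7.3e-05, 0.0011, 2.5e-05, 0.0090 and 0.0080), while *Brca1* in siBard1 did not pass (-0.38, adjusted p = 0.26). At day 6 the differences of each target in its own knockdown were -0.27, 0.01 and 0.11, and none passed the test. In a principal component analysis the days parted on the first axis (56.9% of the variance), where the siWdr5 libraries of day 6 (8.28 and 23.3) lay between the day 3 libraries (at most -18.3) and the other day 6 libraries (at least 37.1). All 8 fibroblast identity genes (*Col1a1*, *Col1a2*, *Col3a1*, *Vim*, *Dcn*, *Lum*, *Fbln1*, *S100a4*) were tested, and their summed level was 7417 to 8391 CPM in nt control at day 3. Of the 6 endothelial markers in the table *Tek* had 170 to 886 reads in a library, and *Kdr*, *Pecam1*, *Vwf*, *Cdh5* and *Emcn* had at most 45, 35, 30, 13 and 3. Of the 5 macrophage and leukocyte markers *Cd68* had 60 to 187 reads, *Csf1r* 12 to 109 and *Lyz2* 3 to 126, and *Cd14* and *Adgre1* had at most 51 and 16.

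The genes spanned a wide range of levels. Per kilobase of exon, which allows genes to be compared, nt control cells at day 3 had *Ly6a* at 117 ± 11.2 CPM per kb (mean ± SD, n = 2), *Thy1* at 70.3 ± 2.80 and *Cd44* at 68.03 ± 0.242. *Cdh11* followed at 24.6 ± 0.0180 CPM per kb and *Pdgfrb* at 20.8 ± 1.77, then *Cdh2* at 10.4 ± 0.467, *Pdgfra* at 7.48 ± 0.262, *Icam1* at 5.34 ± 0.287, *Eng* at 4.08 ± 0.450 and *Fap* at 0.661 ± 0.110. In this order *Thy1* and *Cd44* differed by less than the SD of *Thy1*, and the other neighbours lay further apart than the larger of their SDs. At day 6 the order in nt control was *Ly6a*, *Thy1*, *Cd44*, *Cdh11*, *Pdgfrb*, *Pdgfra*, *Icam1*, *Cdh2*, *Eng* and *Fap*. *Pdgfra* (16.6 ± 1.92 CPM per kb) thus stood beside *Pdgfrb* (17.1 ± 0.479), closer than their SDs, *Ly6a* and *Thy1* differed by less than the SD of *Ly6a*, and *Cdh2* (5.15 ± 0.802) had moved below *Icam1* (11.5 ± 1.95). *Fap* had 27 to 115 reads in a library and is the least precisely measured of the 10.

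**Figure D1:**
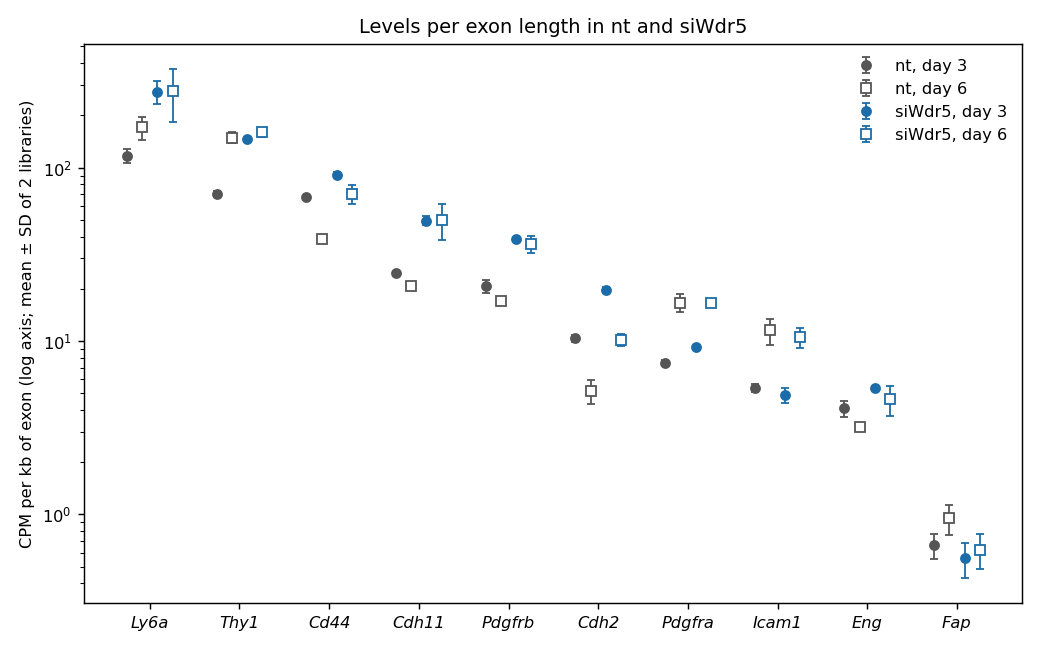
Level of each of the 10 genes in CPM per kb of exon on a log axis, for nt control (grey) and siWdr5 (blue) at day 3 (filled circles) and day 6 (open squares), as the mean ± SD of 2 libraries. *Ly6a* lies at the top in all 4 groups and *Fap* at the bottom, and the open grey squares of *Pdgfra* and *Pdgfrb* lie side by side.

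To ask whether the knockdowns left the fibroblast surface as it was in control cells, each was compared with nt control on the same day. At day 3 most of the 10 genes were higher in siWdr5 and siBrca1, and none was lower in any knockdown by the test. In siWdr5 7 genes were higher and 3 did not pass. Of all genes tested, 35.0% passed in this comparison and 18.3% were higher. In siBrca1 8 genes were higher and 2 did not pass, with 47.2% of all genes past the test and 25.4% higher. In siBard1 3 genes were higher and 7 did not pass, with 14.5% of all genes past the test and 8.67% higher. The median log2 difference of the 10 genes was 0.66, 0.56 and 0.19 in siWdr5, siBrca1 and siBard1, beside -0.04, 0.0022 and -0.02 for all genes tested. With the added limit of an absolute log2 difference above 1, 3 of the 10 passed in siWdr5 (*Thy1*, *Ly6a* and *Cdh11*), 1 in siBrca1 (*Ly6a*) and 0 in siBard1, beside 7.05%, 13.4% and 2.24% of all genes tested. The 3 comparisons of a day share the 2 nt control libraries. The calls were recomputed under other settings and with each library left out in turn. Under all of these, 5 of the 7 calls in siWdr5, 5 of the 8 in siBrca1 and 1 of the 3 in siBard1 were kept.

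**Figure D2:**
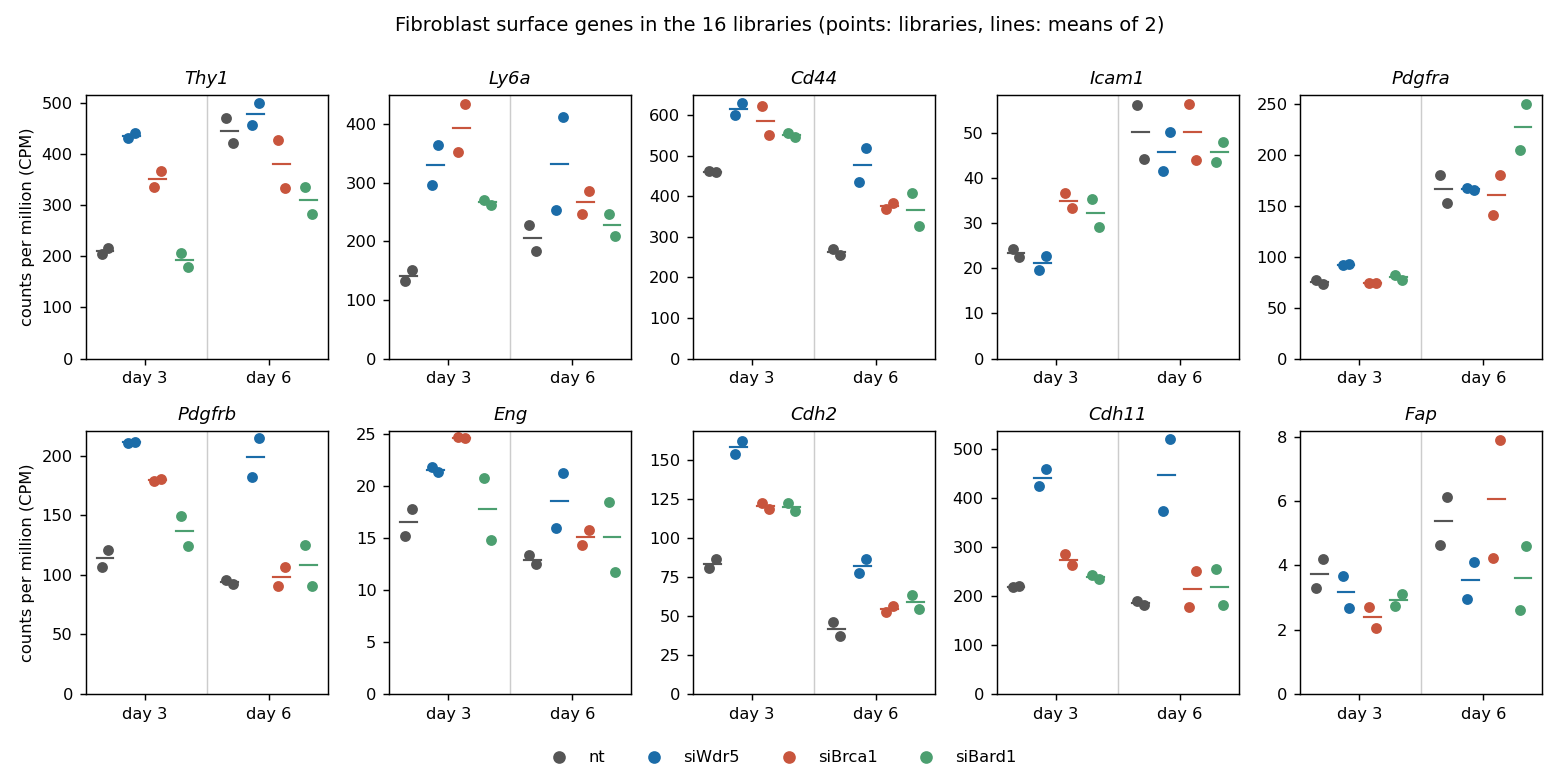
CPM of each gene in every library on linear axes that start at 0, by siRNA (colours) and day, with points for libraries and lines for the mean of 2. At day 3 both siWdr5 points lie above both nt points for *Thy1*, *Ly6a*, *Cd44*, *Pdgfra*, *Pdgfrb*, *Eng*, *Cdh2* and *Cdh11*. Of these *Eng* did not pass the test. The share of all genes that separate in this way was not counted.

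Of the GPI-anchored proteins, *Ly6a* was higher at day 3 in all 3 knockdowns and *Thy1* in siWdr5 and siBrca1. *Thy1* (chr9:44043384-44048579, GRCm38) stood at 204 and 216 CPM in the nt libraries of day 3, at 432 and 441 CPM in siWdr5, at 335 and 366 CPM in siBrca1 and at 206 and 179.7 CPM in siBard1. The siWdr5 and siBrca1 libraries thus lay above both nt libraries without overlap, while those of siBard1 overlapped them. The log2 difference of *Thy1* was 1.05 (SE 0.11) in siWdr5, 0.74 (SE 0.11) in siBrca1 and -0.13 (SE 0.11) in siBard1 (limma, adjusted p = 1.4e-05, 0.00010 and 0.43). *Ly6a* (chr15:74994877-74998031) stood at 132 and 151 CPM in nt control, 296 and 364 CPM in siWdr5, 352 and 434 CPM in siBrca1 and 271 and 261 CPM in siBard1. Every knockdown library was above both nt libraries. Its log2 difference was 1.22 (SE 0.13) in siWdr5, 1.47 (SE 0.13) in siBrca1 and 0.92 (SE 0.13) in siBard1 (limma, adjusted p = 2.1e-05, 3.5e-06 and 0.00072). *Ly6a* shares 23.8% of its 43-base exon words, the length of a read, with *Ly6c1*, *Ly6c2*, *Ly6i* and I830127L07Rik, so its reads and those of its relatives are not fully separable. *Ly6c1* was itself higher in the 3 knockdowns, by 1.75, 1.50 and 0.99 (limma, adjusted p = 3.7e-06, 6.0e-06 and 0.00085).

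Of the adhesion receptors *Cd44* was higher at day 3 in siWdr5 and siBrca1 and *Icam1* in siBrca1 and siBard1. *Cd44* (chr2:102811141-102901665) had 462 and 459.8 CPM in nt control, 602 and 631 CPM in siWdr5, 622 and 552 CPM in siBrca1 and 556 and 547 CPM in siBard1. No knockdown library reached down to the nt level. The log2 differences were small, at 0.42 (SE 0.11) in siWdr5 and 0.35 (SE 0.11) in siBrca1 (limma, adjusted p = 0.0079 and 0.016), and 0.26 (SE 0.11) in siBard1 did not pass (adjusted p = 0.11). The *Cd44* calls in siWdr5 and siBrca1 were lost with quantile normalization and without either nt library, among others (adjusted p up to 0.072 and 0.70). *Icam1* (chr9:21015985-21028817) had 24.1 and 22.4 CPM in nt control, 19.7 and 22.7 CPM in siWdr5, 36.6 and 33.3 CPM in siBrca1 and 35.3 and 29.1 CPM in siBard1. The siBrca1 and siBard1 libraries were above nt control, and those of siWdr5 overlapped it. *Icam1* was higher by 0.59 (SE 0.14) in siBrca1 and 0.46 (SE 0.14) in siBard1 (limma, adjusted p = 0.0032 and 0.038), and its difference in siWdr5 was -0.14 (SE 0.14, adjusted p = 0.46). The call in siBard1 was lost with no filter, in a model of all 16 libraries and without the trend on expression, among other settings (adjusted p between 0.015 and 0.23 over all alternatives). An antisense gene, Gm47079, covers 11.7% of the *Icam1* exon bases, and whether the counting used strand is not given in the sources used here. *Icam1* also shares 13.5% of its 43-base exon words with 1574 other genes, and *Pdgfra* 5.19% with 1299.

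Of the PDGF receptors *Pdgfrb* was higher at day 3 in siWdr5 and siBrca1 and *Pdgfra* in siWdr5. *Pdgfrb*, on chromosome 18, had 107 and 121 CPM in nt control, 211 and 212 CPM in siWdr5, 179 and 181 CPM in siBrca1 and 149.7 and 124 CPM in siBard1. Its libraries ran from nt control over siBard1 and siBrca1 to siWdr5 without overlap between these groups. The log2 difference was 0.90 (SE 0.11) in siWdr5 and 0.66 (SE 0.11) in siBrca1 (limma, adjusted p = 6.9e-05 and 0.00032), and 0.26 (SE 0.11) in siBard1 did not pass (adjusted p = 0.12). *Pdgfra* (chr5:75152292-75198215) had 76.8 and 73.1 CPM in nt control, 91.6 and 93.0 CPM in siWdr5, 74.2 and 74.1 CPM in siBrca1 and 82.5 and 77.1 CPM in siBard1. It was higher by 0.30 (SE 0.10) in siWdr5 (limma, adjusted p = 0.032). This call was kept in 8 of 14 alternatives. Those that lost it included no trend and any 1 of the 4 libraries left out. In alternatives other than leaving out a library its adjusted p went up to 0.082 (limma). The differences in siBrca1 and siBard1 were -0.02 and 0.09 (adjusted p = 0.91 and 0.58). *Eng* (chr2:32646595-32682669) had 15.2 and 17.8 CPM in nt control, 21.8 and 21.4 CPM in siWdr5, 24.7 and 24.7 CPM in siBrca1 and 20.8 and 14.8 CPM in siBard1. It passed in siBrca1, at 0.58 (SE 0.16, limma, adjusted p = 0.0091), and not in siWdr5, at 0.39 (SE 0.16, adjusted p = 0.075), where both libraries were still above nt control. In siBard1 its libraries lay on either side of the nt range.

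Both cadherins were higher in siWdr5 than in any other group of day 3. *Cdh2*, on chromosome 18, had 80.9 and 86.2 CPM in nt control, 153 and 162 CPM in siWdr5, 122 and 119 CPM in siBrca1 and 122 and 117 CPM in siBard1. Every knockdown library was above nt control, with log2 differences of 0.92 (SE 0.10), 0.53 (SE 0.10) and 0.52 (SE 0.10) in siWdr5, siBrca1 and siBard1 (limma, adjusted p = 2.1e-05, 0.00062 and 0.0043). *Cdh11* (chr8:102632095-102785642) had 219 and 219 CPM in nt control, 423 and 458 CPM in siWdr5, 285 and 262 CPM in siBrca1 and 243 and 235 CPM in siBard1. It was higher by 1.01 (SE 0.10) in siWdr5 and by 0.32 (SE 0.10) in siBrca1 (limma, adjusted p = 1.2e-05 and 0.017), and 0.12 (SE 0.10) in siBard1 did not pass (adjusted p = 0.43). The siBrca1 call of *Cdh11* was lost with quantile normalization and without either nt library, among others (adjusted p up to 0.23), and the calls of *Eng* in siBrca1 and *Cdh2* in siBard1 without nt replicate 1.

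*Fap* (chr2:62500943-62574075) was the gene with a lower mean in every knockdown at day 3. It had 3.30 and 4.19 CPM in nt control, 3.68 and 2.66 CPM in siWdr5, 2.72 and 2.04 CPM in siBrca1 and 2.73 and 3.10 CPM in siBard1. The siBrca1 and siBard1 libraries were below nt control and those of siWdr5 overlapped it. None of its differences passed, at -0.25 (SE 0.27), -0.66 (SE 0.27) and -0.35 (SE 0.27) in siWdr5, siBrca1 and siBard1 (limma, adjusted p = 0.50, 0.057 and 0.39).

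**Figure D3:**
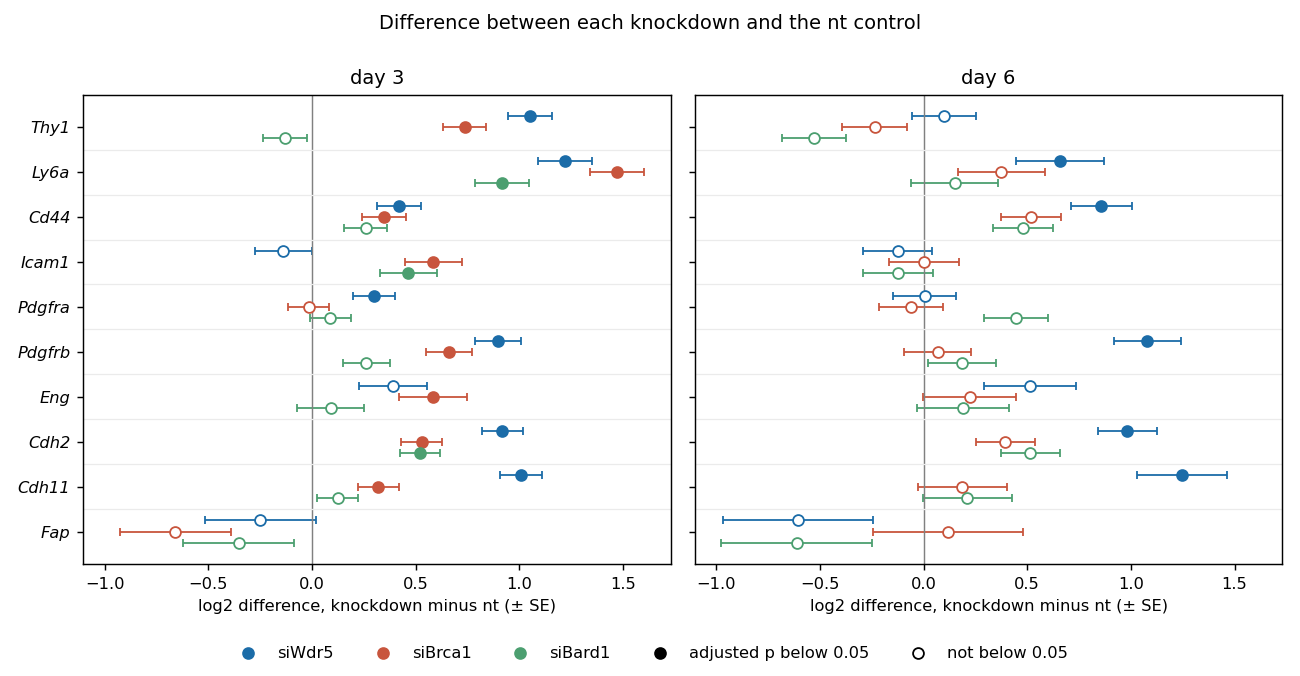
Log2 difference between each knockdown and nt control (± SE) for the 10 genes at day 3 (left) and day 6 (right), with filled points where the adjusted p was below 0.05 (limma). In the day 3 panel 7 siWdr5, 8 siBrca1 and 3 siBard1 points are filled, and in the day 6 panel 5 siWdr5 points are.

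The knockdowns were also compared with each other at day 3. Between siWdr5 and siBard1 5 genes differed, beside 8.63% of all genes tested. *Thy1* was higher in siWdr5 by 1.18 (SE 0.11), *Cdh11* by 0.89 (SE 0.10), *Pdgfrb* by 0.63 (SE 0.11) and *Cdh2* by 0.40 (SE 0.10), and *Icam1* was lower by 0.60 (difference -0.60, SE 0.14, with limma adjusted p of 4.3e-05, 0.00022, 0.0042, 0.024 and 0.0165 in this order). Between siWdr5 and siBrca1 4 genes differed, beside 15.7% of all genes. In siWdr5 *Cdh11* was higher by 0.69 (SE 0.10), *Cdh2* by 0.39 (SE 0.10) and *Pdgfra* by 0.32 (SE 0.10), and *Icam1* differed by -0.72 (SE 0.14, limma adjusted p = 0.00066, 0.017, 0.046 and 0.00345). Between siBrca1 and siBard1 4 genes differed, all higher in siBrca1, beside 21.4% of all genes tested and 13.1% higher. These were *Thy1* by 0.87 (SE 0.11), *Ly6a* by 0.55 (SE 0.13), *Eng* by 0.49 (SE 0.16) and *Pdgfrb* by 0.40 (SE 0.11, limma adjusted p = 0.0030, 0.011, 0.044 and 0.023). *Cd44* and *Fap* did not pass between any pair of knockdowns. Against siBard1 the siWdr5 calls of *Thy1* and *Cdh11* were kept under all 14 alternatives, and those of *Pdgfrb*, *Icam1* and *Cdh2* in 11, 9 and 8 of 14. Against siBrca1 the siWdr5 call of *Cdh11* was kept in all 14, that of *Icam1* in 13, that of *Cdh2* in 10 and that of *Pdgfra* in 6. The *Pdgfra* call was lost with no filter, without the trend, with other sets of libraries in the model, with a replicate block and without either siWdr5 library or siBrca1 replicate 2 (adjusted p up to 0.19), and the *Cdh2* call without the trend, with the compared libraries alone and without either siWdr5 library (adjusted p up to 0.13). Between siBrca1 and siBard1 the calls of *Thy1*, *Ly6a*, *Eng* and *Pdgfrb* were kept in 13, 11, 8 and 8 of 14. Under all alternatives 2 of the 5 calls between siWdr5 and siBard1 were kept. Between siWdr5 and siBrca1 1 of the 4 was kept, and between siBrca1 and siBard1 0 of the 4.

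At day 6, 5 of the 10 genes were still higher in siWdr5, while no gene of the 10 passed in siBrca1 or siBard1. Of all genes tested, 21.8% passed in siWdr5 and 16.1% were higher. At an absolute log2 difference above 1 there were 2, *Cdh11* and *Pdgfrb*, beside 4.83% of all genes. *Cdh11* had 189 and 182 CPM in nt control and 372 and 519 CPM in siWdr5. *Pdgfrb* had 95.5 and 91.8 CPM in nt control and 182 and 215 CPM in siWdr5. *Cdh2* had 46.1 and 37.0 CPM in nt control and 77.1 and 86.3 CPM in siWdr5. In each of these genes the lower siWdr5 library was well above the higher nt library, and the log2 differences were 1.25 (SE 0.22), 1.08 (SE 0.16) and 0.98 (SE 0.14) for *Cdh11*, *Pdgfrb* and *Cdh2* (limma, adjusted p = 0.0062, 0.00375 and 0.0036). *Cd44*, with 269 and 256 CPM in nt control and 436 and 519 CPM in siWdr5, was higher by 0.86 (SE 0.14, limma, adjusted p = 0.0058). *Ly6a* had 228 and 184 CPM in nt control and 253 and 411 CPM in siWdr5, close to overlap, and its difference of 0.66 (SE 0.21) passed narrowly (limma, adjusted p = 0.048) and was lost without the filter, without the trend and with centred libraries, among other settings. *Thy1* had 469.8 and 422 CPM in nt control and 456 and 499 CPM in siWdr5, which overlap, with a difference of 0.10 (SE 0.16, adjusted p = 0.67). Replicate 2 of siWdr5 at day 6 was the deepest of the 16 libraries (26832534 reads) and the siWdr5 libraries lay apart on *Ly6a* and *Cdh11*. Without it 0 of the 10 genes passed, and without replicate 2 of nt control 2 did, where the lone library left in a group is assumed to vary like those of the other groups.

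In siBrca1 at day 6 limma called 0 of the 14028 genes, and 1123 had an unadjusted p below 0.05, *Cd44* and *Cdh2* among them. Limma-voom on the recovered reads also called 0 genes. *Cd44* had 369.7 and 383 CPM in siBrca1, above both nt libraries of day 6, with a difference of 0.52 (SE 0.14, limma, adjusted p = 0.45), and *Cdh2* had 52.2 and 56.4 CPM with a difference of 0.39 (SE 0.14, adjusted p = 0.53). In siBard1 11 genes passed (0.0784% of those tested), none of the 10 among them, and limma-voom called 7 genes and none of the 10. At an unadjusted p below 0.05 there were 1908 genes, which included *Cd44*, *Cdh2*, *Pdgfra* and *Thy1*. In siBard1 *Pdgfra* had 205 and 249.7 CPM, above the 180.4 and 153 CPM of nt control, and *Thy1* had 336 and 283 CPM, below nt control. Their differences were 0.45 (SE 0.15) and -0.53 (SE 0.16, limma, adjusted p = 0.27 and 0.21). The remaining differences of the 10 genes lay between -0.24 and 0.38 in siBrca1 and between -0.61 and 0.21 in siBard1, apart from the *Cd44* and *Cdh2* differences of 0.48 and 0.51 in siBard1.

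Between day 3 and day 6 the 10 genes did not move as 1 group. In nt control 4 rose, 2 fell and 4 did not pass, beside 46.2% of all genes tested past the threshold (19.0% higher and 27.1% lower). *Pdgfra* rose from 76.8 and 73.1 to 180.4 and 153 CPM, by 1.15 (SE 0.13, limma, adjusted p = 7.5e-06). *Icam1* rose from 24.1 and 22.4 to 56.1 and 44.1 CPM, by 1.10 (SE 0.16, limma, adjusted p = 5.9e-05). *Thy1* rose from 204 and 216 to 469.8 and 422 CPM, by 1.08 (SE 0.13, limma, adjusted p = 1.5e-05). These genes were about doubled on the linear scale, with no overlap of the days, and *Ly6a* rose less, by 0.54 (SE 0.19, limma, adjusted p = 0.029). *Cdh2* fell from 80.9 and 86.2 to 46.1 and 37.0 CPM, a difference of -1.02 (SE 0.12, limma, adjusted p = 1.2e-05). *Cd44* fell from 462 and 459.8 to 269 and 256 CPM, a difference of -0.81 (SE 0.12, limma, adjusted p = 8.5e-05). *Cdh11* did not pass, at -0.24 (SE 0.18, adjusted p = 0.28), nor did *Pdgfrb* at -0.28, *Eng* at -0.35 and *Fap* at 0.52.

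In the knockdowns the same contrast was passed by 4 genes in siWdr5, 8 in siBrca1 and 5 in siBard1, beside 25.3%, 49.4% and 34.6% of all genes tested. *Cdh2* and *Cd44* fell and *Pdgfra* and *Icam1* rose in each. The differences of *Cdh2* were -0.95, -1.15 and -1.02 in siWdr5, siBrca1 and siBard1 (SE 0.12 each), and those of *Cd44* were -0.37, -0.64 and -0.59 (SE 0.12 each). *Pdgfra* rose by 0.85, 1.10 and 1.50 (SE 0.13 each) and *Icam1* by 1.11, 0.51 and 0.51 (SE 0.16 each). *Thy1* rose in siBard1 by 0.68 (SE 0.13, limma, adjusted p = 0.00097) and was 0.13 and 0.11 (SE 0.13 each) in siWdr5 and siBrca1, where it had been high at day 3 and did not pass (adjusted p = 0.50 and 0.51). In siBrca1 *Pdgfrb* fell by 0.87 (SE 0.14), *Eng* by 0.71 (SE 0.21) and *Ly6a* by 0.56 (SE 0.19), and *Fap* rose by 1.29 (SE 0.33, limma, adjusted p = 0.00015, 0.0090, 0.023 and 0.0046). The *Icam1* call in siBrca1 was kept in 10 of 13 alternatives. It was lost without replicate 2 of day 3 or replicate 1 of day 6. It was also lost under a setting other than leaving out a library (limma, adjusted p up to 0.055). The *Icam1* call in siBard1 was lost without either replicate 2. That of *Cd44* in siWdr5 was lost without the trend, with quantile normalization and without 3 of its 4 libraries in turn, that in siBrca1 with quantile normalization, and that of *Fap* without siBrca1 replicate 2 of day 6 (adjusted p up to 0.28, 0.095 and 0.075). The *Ly6a* calls in nt control and siBrca1 were each kept in 9 of 13 alternatives. That in nt control was lost without the trend (adjusted p = 0.066), without either nt library of day 3 and without nt replicate 1 of day 6 (adjusted p up to 0.22). That in siBrca1 was lost with quantile normalization, where the difference shrank to -0.17 (adjusted p = 0.42), without the trend, and without siBrca1 replicate 2 of day 3 or replicate 1 of day 6. *Cdh11* did not pass in any of the 4 courses, with differences from -0.37 to -0.0024.

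**Figure D4:**
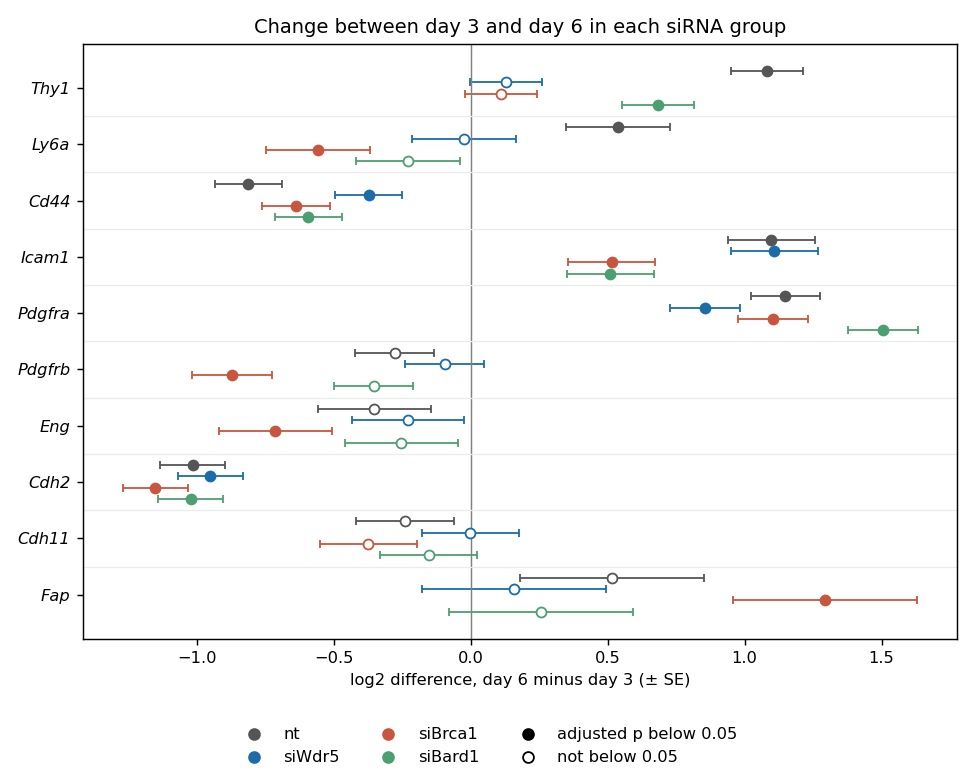
Log2 difference between day 6 and day 3 (± SE) for the 10 genes in each siRNA group, with filled points where the adjusted p was below 0.05 (limma). *Cd44* and *Cdh2* lie left of 0 and *Icam1* and *Pdgfra* right of 0 with 4 filled points each, and *Ly6a* points lie on both sides.

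Whether a knockdown changed these genes differently on the 2 days was tested as the day 6 difference to nt control minus that of day 3. *Thy1* differed in siWdr5, by -0.95 (SE 0.19, limma, adjusted p = 0.022), and in siBrca1, by -0.97 (SE 0.19, adjusted p = 0.0037). *Ly6a* differed in siBrca1, by -1.10 (SE 0.27, limma, adjusted p = 0.011), its difference to nt control being 1.47 at day 3 and 0.38 at day 6. These were 1 of 10 genes in siWdr5, beside 4.43% of all genes tested, and 2 of 10 in siBrca1, beside 20.5%. In siBard1 0 of the 10 passed in limma and 0 in limma-voom, and 3 had an unadjusted p below 0.05 (*Icam1*, *Ly6a* and *Thy1*), beside 2694 of the 14028 genes, of which 0.0499% passed after adjustment. The cadherins did not pass, with -0.14 to 0.24 over both genes and all 3 knockdowns. The *Thy1* call in siWdr5 was lost without the trend on expression and when any 1 library other than nt replicate 2 of day 6 was left out, and that of *Ly6a* in siBrca1 was lost without nt replicate 1 of day 3, siBrca1 replicate 2 of day 3 or nt replicate 1 of day 6.

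Ratios of related genes within a library do not depend on its depth. *Pdgfra* per *Pdgfrb*, on the scale of CPM per kb, was 0.393 and 0.331 in nt control at day 3 and 1.03 and 0.911 at day 6. In siWdr5 it was 0.237 and 0.240 at day 3 and 0.503 and 0.422 at day 6. The siWdr5 libraries of day 6 thus lay below all other day 6 libraries, which ran from 0.853 to 1.50, and above the 8 libraries of day 3. *Icam1* per *Cd44* was 0.0812 and 0.0756 in nt control at day 3 and 0.324 and 0.268 at day 6. In siWdr5 it was 0.0508 and 0.0559 at day 3 and 0.148 and 0.150 at day 6, the lowest values of each day. *Cdh11* per *Cdh2* was 1.79 to 2.56 over the 8 day 3 libraries and 3.00 to 5.45 over those of day 6, with no overlap of the days. *Thy1* per *Ly6a* was 0.625 and 0.578 in nt control at day 3, 0.305 and 0.277 in siBard1 and 0.383 and 0.340 in siBrca1. These ratios were chosen after the values of the genes were seen and are given as a description.

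**Figure D5:**
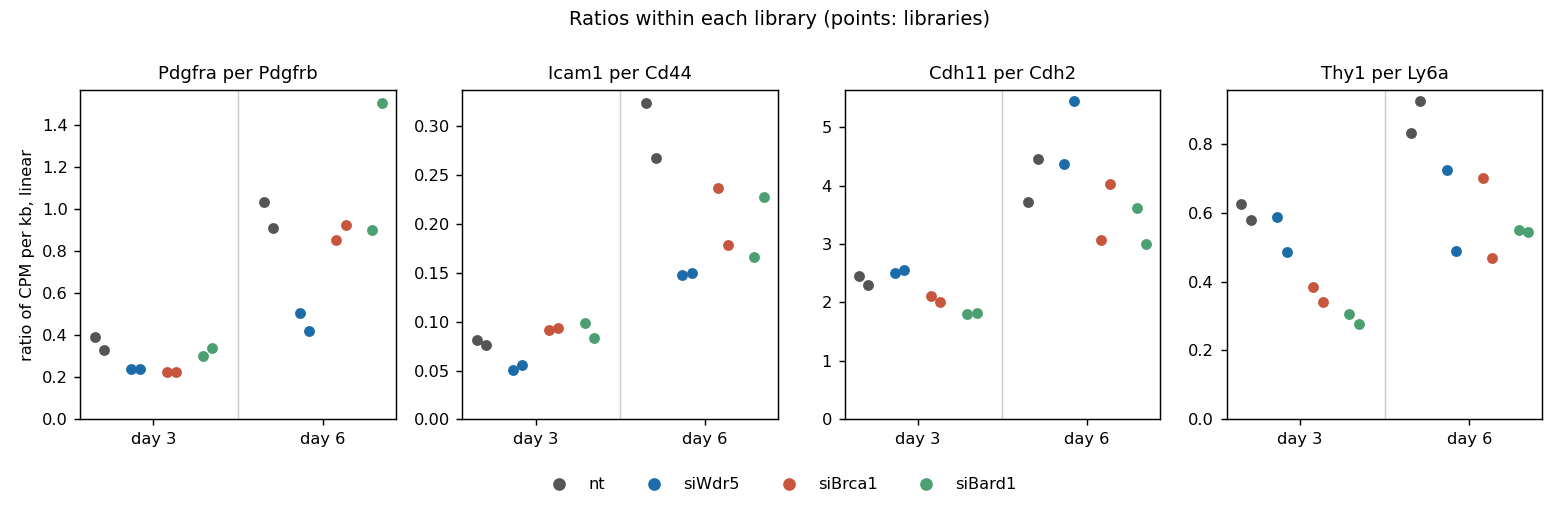
Ratio of the CPM per kb of gene pairs within each library on linear axes, by siRNA (colours) and day. In the panels of *Pdgfra* per *Pdgfrb* and *Icam1* per *Cd44* the siWdr5 points of day 6 lie below those of all other groups of day 6.

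Genes that act together with the 10 were followed in lists. At day 3, 18.3%, 25.4% and 8.67% of all genes tested were higher in siWdr5, siBrca1 and siBard1. In either direction 35.0%, 47.2% and 14.5% passed. The list counts of day 3 given from here on stand beside these shares and were not tested against them. Of the 4 PDGF ligand genes 3 were higher and 1 lower in siWdr5 at day 3, 3 were higher in siBrca1 and 2 in siBard1, with *Pdgfc* at 1.18, 1.11 and 0.76 and *Pdgfb* at -1.81 in siWdr5 (limma, adjusted p = 4.8e-05, 4.4e-05, 0.0038 and 0.0075). Of the 7 receptor partners and SMADs of endoglin, 5, 4 and 2 were higher in siWdr5, siBrca1 and siBard1 and none lower. Among them *Acvrl1*, the type I receptor that endoglin assists, was higher by 0.79, 1.33 and 0.78 (limma, adjusted p = 0.0021, 3.0e-05 and 0.0073). Of the 10 genes of hyaluronan metabolism and CD44 partners, 4 were higher and 2 lower in siWdr5, 5 higher and 3 lower in siBrca1 and 2 higher and 1 lower in siBard1. *Has2*, a hyaluronan synthase, was higher in siWdr5 by 1.22 at day 3 and by 2.80 at day 6 (limma, adjusted p = 2.4e-05 and 0.0034), and *Ezr* and *Msn*, which link CD44 to actin, moved apart at -0.82 and 0.75 in siWdr5 at day 3 (limma, adjusted p = 0.00013 and 0.00048).

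*Vcam1*, an endothelial and stromal ligand of integrins and the one gene of the ICAM list that was tested, was higher in all 3 knockdowns at day 3, by 0.97, 0.65 and 0.69 (limma, adjusted p = 8.2e-05, 0.00073 and 0.0031). The leukocyte integrin genes *Itgal* and *Itgb2* had at most 18 and 28 reads. Of the 5 other cadherins tested, 1 was higher and 1 lower in siWdr5 at day 3. In siBrca1 2 were higher and 1 lower, and in siBard1 1 was higher and 0 lower. *Cdh6* was higher in all 3 knockdowns, by 1.66, 1.01 and 0.84, and *Cdh1*, the epithelial cadherin, differed by -1.46 in siWdr5 and -1.46 in siBrca1 (limma, adjusted p = 9.0e-05, 0.0016, 0.020, 0.00015 and 8.3e-05). *Cdh3* averaged 8.08 CPM in nt control and 15.6 CPM in siBrca1 at day 3. Between the days of nt control *Cdh1* rose by 1.97 (limma, adjusted p = 7.6e-06) while *Cdh2* fell, so that *Cdh1* per *Cdh2* on the scale of CPM per kb went from 0.905 and 0.601 to 4.48 and 7.57. Of the 4 catenins that bind cadherins, 3 were higher in siWdr5, 3 in siBrca1 and 0 in siBard1 at day 3. In siBard1 none of the 4 had an adjusted p below 0.05 in limma, the lowest being 0.051 for *Ctnnd1*. Of the 4 genes of the FAP protease family 1 was lower and 0 higher in siWdr5 at day 3. In siBrca1 1 was higher and 1 lower, and in siBard1 0 passed. The lower gene was *Dpp4*, at -1.47 in siWdr5 and -1.18 in siBrca1 (limma, adjusted p = 0.015 and 0.034), with only 9 to 131 reads in a library. At day 6, 2 of the 4 were higher in siWdr5 and 0 lower, beside 16.1% of all genes tested that were higher.

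Further surface genes of fibroblasts and stroma were counted in the same way, beside the same shares of all genes. Of 12 such genes 8 were higher in siWdr5 at day 3 and none lower, 9 were higher and 1 lower in siBrca1, and 5 were higher and 1 lower in siBard1. *Alcam* was higher in the 3 knockdowns by 1.44, 1.26 and 1.17 (limma, adjusted p = 2.5e-05, 3.9e-05 and 0.00054), and *Cd34* was lower in siBrca1 and siBard1, at -0.75 and -0.64 (adjusted p = 0.0040 and 0.032). Of the 8 fibroblast identity genes 7 were higher in siWdr5 at day 3, 4 were higher and 1 lower in siBrca1, and in siBard1 1 was lower and 7 did not pass. *Dcn* differed by 0.75 in siWdr5, -0.52 in siBrca1 and -0.46 in siBard1 (limma, adjusted p = 0.0015, 0.0094 and 0.046).

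Markers of other cells moved with the 10 genes in part. The 6 pericyte markers, several of which fibroblasts also express, summed to 87.9 to 110 CPM in nt control at day 3, 245 to 249 CPM in siWdr5, 286 to 333 CPM in siBrca1 and 156 to 199 CPM in siBard1, and 5, 5 and 4 of the 6 were higher. *Des* held most of that sum in siWdr5, at 139 CPM against 35.4 CPM in nt control. The more specific genes *Rgs5*, *Kcnj8* and *Abcc9* rose in siWdr5 from 0.670, 0.790 and 0.927 to 2.36, 2.24 and 5.14 CPM, with log2 differences of 1.87, 1.56 and 2.48 (limma, adjusted p = 0.00086, 0.012 and 3.1e-05). The part of such cells in the differences of *Pdgfrb*, *Thy1* and the cadherins was not tested. The 5 macrophage and leukocyte markers in the table summed to 8.21 to 9.19 CPM in nt control at day 3 and 12.9 to 14.8 CPM in siWdr5. Their sums were 17.0 to 18.75 CPM in siBrca1 and 9.20 to 10.1 CPM in siBard1, where 0 of the 4 tested passed. *Icam1* and *Ly6a* were higher in siBrca1 and in siBard1, while in siWdr5 *Ly6a* was higher and *Icam1* was not. *Csf1r* was higher in siWdr5 by 1.81 and in siBrca1 by 1.06, and *Cd68* in siBrca1 by 1.07 (limma, adjusted p = 0.00016, 0.0035 and 0.0018), and their part was not tested. The 6 endothelial markers in the table summed to 42.0 to 42.9 CPM in nt control and 54.6 to 61.4 CPM in siWdr5 at day 3, of which *Tek* held 40.03 and 54.05 CPM on average. The sums were 25.6 to 44.3 CPM in siBrca1, with *Tek* at 31.2 CPM on average, and 41.6 to 49.5 CPM in siBard1. *Tek* and *Kdr* were the 2 tested, and neither passed in any knockdown at day 3. Of the 10 epithelial and early reprogramming markers 4 were lower and 2 higher in siWdr5 at day 3, 3 lower and 2 higher in siBrca1 and 1 lower and 1 higher in siBard1, with medians of -0.83, -0.32 and -0.39. *Sall4* and *Epcam* differed by -2.44 and -1.93 in siWdr5, where *Krt19* and *Alpl* were higher by 0.59 and 0.51 (limma, adjusted p = 2.1e-05, 0.0012, 0.0033 and 0.017). Their summed level was 106 to 128 CPM in nt control at day 3, 96.4 to 100.1 CPM in siWdr5, 84.4 to 110 CPM in siBrca1 and 96.4 to 113 CPM in siBard1. At day 6 it was 642 to 848 CPM in nt control, 458 to 586 CPM in siWdr5, 654 to 692 CPM in siBrca1 and 455 to 584 CPM in siBard1. By the test 4 of the 10 were lower and 1 higher in siWdr5 at day 6, beside 21.8% of all genes that passed. In siBrca1 and siBard1 0 of the 10 passed, beside 0% and 0.0784% of all genes.

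Over the 16 libraries the profiles of the 10 genes were matched with those of all genes tested, by the root mean square difference of log2 values after each gene was centred on its own mean. *Cdh11* and *Pdgfrb* were the pair of the 10 that ran closest, 0.187 apart, and *Pdgfrb* was the second nearest of all genes to *Cdh11* after *Prdm11* (0.167). *Pdgfrb* lay 0.112 from *Plekhf1*, *Eng* 0.132 from *Bicd2*, *Ly6a* 0.142 from *Mpp1* and *Cdh2* 0.145 from 2310022B05Rik. *Pdgfra* lay 0.155 from *Lpar1* and *Icam1* 0.158 from *Cacna1a*, and these members of the 10 were nearest to each other among the 10, at 0.400. *Thy1*, with *Serpinf1* at 0.210, had no other gene of the 10 closer than *Ly6a* at 0.482, and *Fap* none closer than *Icam1* at 0.546. The profiles share their libraries, and the distances are a description.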

How the data were processed

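RNA of 16 cultures was depleted of ribosomal RNA and sequenced paired-end with reads of 43 bases by the authors, who aligned it to mm10 with STAR 2.5.2b and computed log-CPM with edgeR 3.20.9. The deposited values are log2 CPM per gene, scaled between libraries and raised by a prior count, which slightly understates changes of low genes such as *Fap*. The read counter, annotation and low-count filter are not given in the sources used here. The authors' own gene calls, made from counts, were not used. Whole reads were recovered from the deposited log2 values (100% within 0.01 of a whole number), which gave the library sizes, and all 16 sample columns were used.

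Genes whose log2 CPM averaged 0 or more in the 16 libraries entered limma 3.58.1 (R 4.3.3) with a moderation trend on expression. Two-sided p-values were corrected across all 14028 of them after Benjamini and Hochberg, and a gene passed at an adjusted p below 0.05. Knockdowns were compared within the 8 libraries of a day, with 1 mean per group. Changes between days and their differences between siRNAs were fitted in all 16 libraries. The replicates are biological replicates per the labels. The authors describe the sequencing replicates as coming from independent experiments. Neither they nor the labels tie same-numbered libraries of different groups to a shared experiment, culture or day. The numbers were therefore not used as pairs in the main tests. Named genes are the 10, members of the lists, the 3 siRNA targets, and the nearest profiles, not all of which are reported here. The 10 genes and the lists were chosen with earlier results of these data known. Coordinates, exon lengths, overlaps and shared 43-base words come from GENCODE vM21 (GRCm38), computed with Python 3.11.15, pandas 2.3.3 and numpy 2.4.6, and the plots were drawn with matplotlib 3.10.9. The limma steps were tested on simulated data first. The alternatives were 2 other scalings, no filter or a mean log2 CPM of at least 2, log2(CPM + 1), no trend, other sets of libraries in the model, limma-voom on the recovered reads, the replicate number as a block, and each replicate left out.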

Additional observations from a re-analysis of the deposited data

Results flagged for a closer look

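Of the differences between the days, 3 were set apart by a test of the difference itself (limma, all 16 libraries). The siBrca1 effect on *Ly6a* was smaller at day 6 than at day 3, by -1.10, with both siBrca1 libraries of day 3 (352 and 434 CPM) above those of day 6 (246 and 287 CPM) while nt control went from 132 and 151 to 228 and 184 CPM. This call was kept under 14 of 17 alternatives. The siBrca1 effect on *Thy1* differed by -0.97, and this call was kept under all 17. The siWdr5 effect on *Thy1* differed by -0.95: nt control rose from 204 and 216 to 469.8 and 422 CPM, and siWdr5 stood at 432 and 441 CPM at day 3 and at 456 and 499 CPM at day 6. This call was kept under 9 of 17 alternatives.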

How the results depend on the processing

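Over the 62 member calls of the 16 comparisons, 549 of 593 recomputations under alternatives other than leaving out a library kept direction and threshold and 44 lost the threshold, and with 1 library left out 188 of 260 kept both and 72 lost the threshold. No call changed direction. In 31 calls no alternative changed either, among them *Ly6a* at day 3 in all 3 knockdowns and *Cdh2* and *Pdgfra* between the days in all 4 siRNA groups. With only 2 libraries per group the design limits what can pass, and *Fap*, at 27 to 115 reads, had the fewest reads of the 10. The causes of the changes below were not tested.

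Counts of passing genes moved as follows. At day 6 siBard1 went from 0 to 1 in a model of all 16 libraries. The siWdr5 day difference went from 1 to 0 without the trend, that of siBrca1 from 2 to 4 with centring and 4 with quantile normalization, and that of siBard1 from 0 to 1 with the compared libraries alone. Centring moved the median of all genes by -0.135 in the siWdr5 day difference and by less than 0.1 elsewhere. Between siWdr5 and siBrca1 the 4 became 2 with the compared libraries alone and 2 without the trend. Between siBrca1 and siBard1 the 4 became 2 with no filter, 2 with the compared libraries alone, 1 in all 16 libraries and 1 without the trend. Between siWdr5 and siBard1 the 5 became 3 without the trend. Leaving out 1 library gave 5 to 6 for siWdr5 at day 3, 5 to 8 for siBrca1, 1 to 2 for siBard1, 0 to 5 for siWdr5 at day 6, 0 to 1 for the siWdr5 and 1 to 3 for the siBrca1 day difference, 1 to 5 between siWdr5 and siBrca1, 0 to 4 between siBrca1 and siBard1 and 2 to 3 between siWdr5 and siBard1.

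Signs turned in differences that had not passed. Centring gave 0.011 for *Pdgfra* in siBrca1 at day 3, and -0.064 for *Pdgfra* in siWdr5 and -0.026 for *Icam1* in siBrca1 at day 6. Quantile normalization gave -0.10 for *Thy1* and -0.21 for *Pdgfra* in siWdr5 and -0.068 for *Icam1* and -0.023 for *Pdgfrb* in siBrca1 at day 6, and limma-voom gave -0.0032 for *Icam1* in siBrca1. With 1 library left out the ranges were -0.16 to 0.34 for *Eng* in siBard1 and -0.052 to 0.019 for *Pdgfra* in siBrca1 at day 3. At day 6 they were -0.30 to 0.048 for *Icam1* and -0.11 to 0.12 for *Pdgfra* in siWdr5. In siBrca1 they were -0.24 to 0.12 for *Pdgfra*, -0.33 to 0.57 for *Fap*, -0.18 to 0.18 for *Icam1*, -0.054 to 0.19 for *Pdgfrb* and -0.065 to 0.44 for *Cdh11*. In siBard1 they were -0.30 to 0.052 for *Icam1*, -0.0043 to 0.30 for *Ly6a*, -0.044 to 0.41 for *Pdgfrb*, -0.035 to 0.46 for *Cdh11* and -0.14 to 0.52 for *Eng*.

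The deviations of same-numbered libraries correlated across genes with r of -0.093 to 0.072 between the groups of day 3 and -0.070 to 0.26 between those of day 6, so that some pairs of day 6 groups deviated together and others did not. A block for the replicate number gave 7, 8 and 3 passing genes for siWdr5, siBrca1 and siBard1 at day 3 and 5, 0 and 0 at day 6. The block moved the siBrca1 day difference from 2 to 3 genes and lost *Pdgfra* between siWdr5 and siBrca1.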
